A study of Rattus norvegicus with 6 samples.

Results

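Translation factors are the proteins that load ribosomes onto messenger RNA and move them along it. This account describes their genes in the hippocampus of Fmr1 knockout (KO) rats, against wild-type (WT) rats. The members were all genes in the count table whose symbol begins with Eif or Eef and a number, without the eIF2 kinase genes (Eif2ak) and without the Y-linked Eif2s3y. The rule took 59 of the 17455 genes, 47 initiation (Eif) and 12 elongation (Eef) genes, and used no measured value. All 59 had enough counts to be tested, among 11800 tested genes. The prefix also collects genes that act on these factors, such as the cap-binding repressors Eif4ebp1, Eif4ebp2 and Eif4ebp3, the kinase Eef2k and 4 methyltransferase genes.

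Hippocampal RNA was sequenced from 3 KO and 3 WT male rats, all 10 weeks old and on a Long Evans background, 1 library per rat. The KO rats carried the Fmr1em2Mcwi allele, and no rat received a treatment in the labels of these samples. FMRP, the product of Fmr1, binds RNA and holds back translation, so the comparison asks whether its loss comes with other levels of the mRNAs for the translation apparatus. The methods select KO and WT rats from littermates and give 1 litter per group for this experiment, without saying whether the KO and WT rats sequenced shared a litter, so the part of litter in the values was not tested.

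Initiation begins when eIF2 brings the initiator tRNA to the small ribosomal subunit, which eIF1, eIF1A and eIF3 keep open for scanning, while eIF4E, eIF4G and eIF4A load the mRNA by its cap. The eIF2B complex recharges eIF2 with GTP, eIF5 triggers GTP hydrolysis at the start codon, and eIF5B joins the large subunit that eIF6 had held apart. During elongation eEF1A delivers each aminoacyl-tRNA, the eEF1B complex recharges eEF1A, and eEF2 moves the ribosome to the next codon. FMRP is known for slowing translation in neurons, at synapses above all.

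Many mRNAs of the translation apparatus, those of eEF1A and eEF2 among them, are known to begin with a C and a run of pyrimidines, the 5′ terminal oligopyrimidine tract, through which the mTOR pathway controls how well they are translated. Windows of 30 bases near the annotated start sites of 4 elongation factor genes are printed with their longest run of this kind in capitals, 5′ to 3′ on the strand of the gene. They are shown because the run is a letter feature that most elongation genes hold near the start. Counted from 1 at the first transcribed base, and backwards from -1 before it, the run begins at -1 in Eef1a1, 3 in Eef1b2, 13 in Eef1a2 and -20 in Eef1g. It thus lay at or next to the annotated start in Eef1a1 and Eef1b2, downstream of it in Eef1a2 and upstream of it in Eef1g. The windows come from RefSeq on the GRCr8 assembly, whereas the reads had been counted on rn6.
Eef1a1, chr8:88225046-88225075, minus strand: acgttCTTTTTCgcaacgggtttgccgtca
Eef1a2, chr3:188652597-188652626, minus strand: tgcgtCCTCTCggatcctcgttacgccggc
Eef1b2, chr9:72074088-72074117, plus strand: cccggCCCTTTTTCTCCCTCagcgctggcc
Eef1g, chr1:215289790-215289819, plus strand: ccccaCCCCCTTTCTCTgcggaatcaccat
The tract was sought as a C followed by at least 4 bases that were each C or T, on the strand of the gene only, within 20 bases on either side of the start. It was found in 10 of the 11 elongation genes with a promoter in the table (90.9%) and in 21 of the 42 initiation genes (50%). It was also held by 141 of the 242 ribosomal protein genes with a promoter (58.3%) and by 46.7% of all 27457 genes with a listed promoter. The pattern is thus common, and a match is a description of letters only. The 10 elongation genes include the 4 methyltransferase genes, and runs before the start were counted too, as in Eef2 at -18. The windows of Eif5 and Eif6, which are described next, held no such tract.
Eif5, chr6:136410323-136410352, plus strand: ggccgagggtagcttgagcgcggcggcggc
Eif6, chr3:164791391-164791420, minus strand: gtgtagagattggagtcgtttggtgagctg

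The libraries held 9619812 to 13390476 counts in genes. Fmr1, the targeted gene, had 17.4, 13.1 and 11.6 CPM (counts scaled to the effective library size) in the KO libraries, against 47.6, 50.6 and 51.6 CPM in the WT libraries, so it was lower in every KO library but still detected. Its log2 fold change of KO over WT was -1.83 (SE 0.12, adjusted p = 5.73e-06, edgeR's quasi-likelihood test with Benjamini-Hochberg adjustment). Neuronal markers of the hippocampus summed to 3918 to 4247 CPM in KO and 3937 to 4713 CPM in WT libraries. Camk2a had 1619 to 2038 CPM, whereas Spink8 had only 0 to 0.311 CPM. Of the 8 listed, 6 were tested and none passed an unadjusted p of 0.05. Of 8 oligodendrocyte markers 4 were lower at an unadjusted p under 0.05, as were 5.15% of all genes, and their summed level was 10274 to 11928 CPM in KO and 13111 to 13723 CPM in WT libraries. Astrocyte markers summed to 5326 to 6116 CPM in KO and 4809 to 5471 CPM in WT libraries, with 1 of 5 higher, and endothelial markers to 351 to 367 CPM in KO and 332 to 344 CPM in WT libraries, with 1 of 4 higher, beside 4.19% of all genes. Microglial markers summed to 294 to 321 CPM in KO and 289 to 346 CPM in WT libraries, with 1 of 5 lower. The markers of blood summed to 52.9 to 68.8 CPM in KO and 50.8 to 117 CPM in WT libraries, with 1 of 4 lower. Those of choroid plexus summed to 4.46 to 8.63 CPM in KO and 10.3 to 13.5 CPM in WT libraries. Of these, 1 of 2 tested was lower, beside 5.15% of all genes, and Otx2 was at 0 in all 6 libraries. The part of these cell types in the values that follow was not tested, and fewer cells of a type cannot be told apart from less RNA per cell. On the first principal component of all genes (28.8% of the variance) WT replicate 3, at -6.20, lay among the KO libraries, at -11.0, -5.49 and -9.30, and away from WT replicates 1 and 2, at 19.6 and 12.4. On the second (21.7%) KO replicate 3, at -20.1, lay apart from KO replicates 1 and 2, at 4.10 and 4.98. The WT libraries were at -1.91, 0.162 and 12.8 on it.

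The translation factor genes had nearly the same levels in KO and WT hippocampi. No member passed an adjusted p of 0.05 in edgeR's quasi-likelihood test, and the smallest value was 0.438. Over all genes this threshold was passed by 0.0254%, which is 3 genes. At an unadjusted p under 0.05, 1 member (Eif6) was lower in KO and 0 were higher, while 5.15% of all genes were lower and 4.19% higher. The DESeq2 test likewise gave 1 lower member (Eif6) and 0 higher, beside 3.97% and 2.95% of all genes, and 0 members at an adjusted p under 0.05, beside 0.314%. The KO libraries were all below the WT libraries for 1 member (Eif6) and all above them for 1 (Eif2s1), against 7.52% and 7.19% of all genes. By none of these counts did the share among the members exceed that of all genes.

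The log2 fold changes of the members had a median of -0.01, close to the 0.00 of all genes, and 44 of the 59 were smaller than 0.1 in size. Slightly more than an even share, 32 of 59 (54.2%), were below 0, against 49.5% of all genes. For 50 of the 59 members (84.7%) the 95% interval of the log2 fold change lay inside a 1.25-fold change in either direction, which is 0.32 on the log2 scale. This held for 49.3% of all genes. The median count per library was 936.5 for the members and 381 for all genes, and the median SD of log2 CPM was 0.08 in KO and 0.09 in WT libraries for the members, against 0.10 in KO and 0.12 in WT libraries for all genes. The 9 members whose interval reached that limit, and which are therefore less well bounded, were Eif2b1, Eif3h, Eif4ebp1, Eif4ebp3, Eif5, Eif6, Eef1akmt1, Eef1akmt2 and Eef2kmt.

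**Figure D1:**
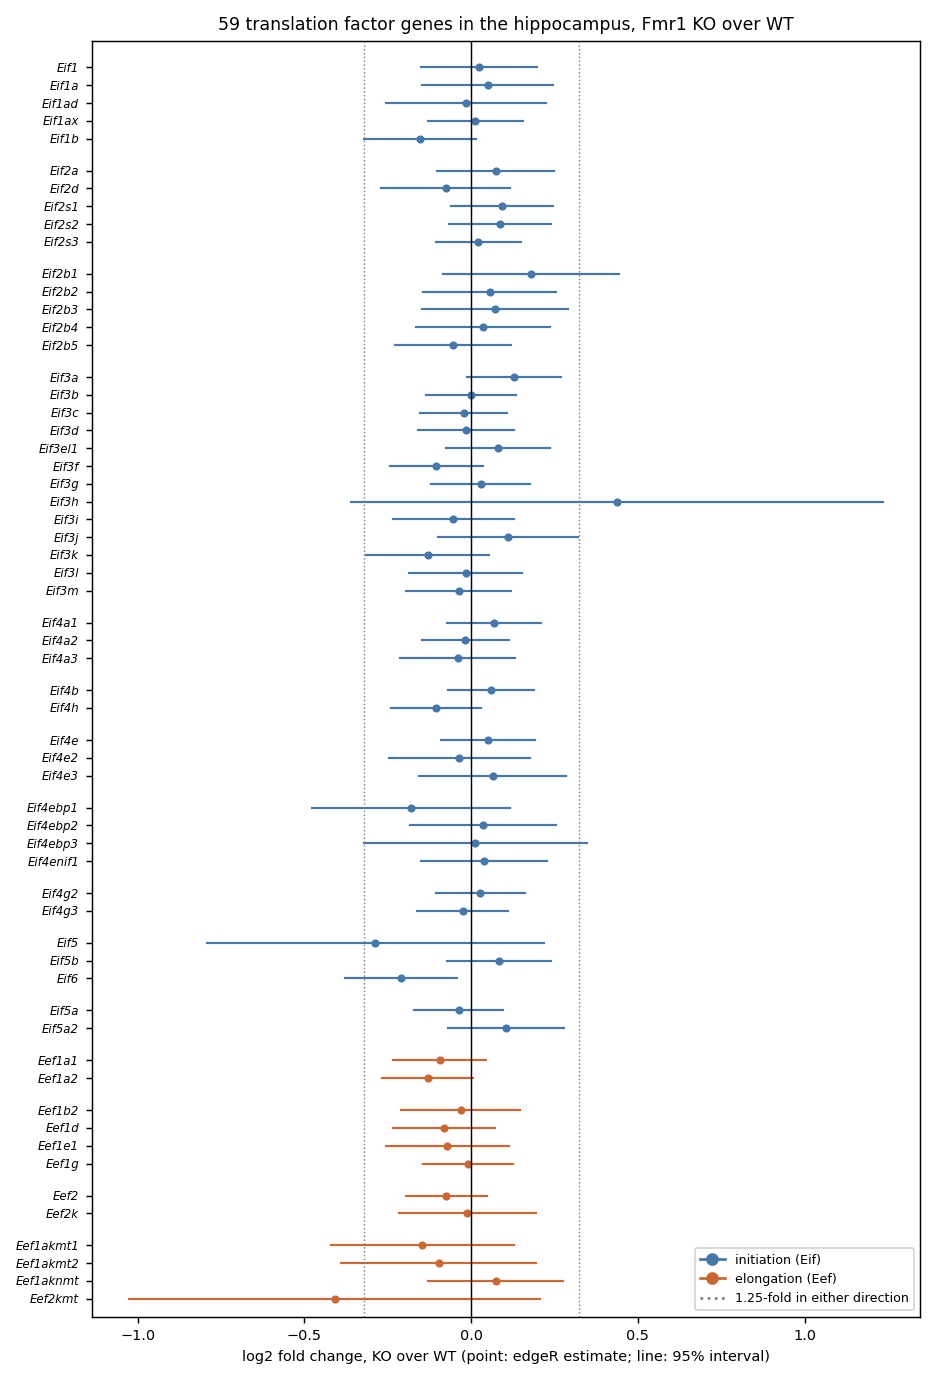
Log2 fold change of KO over WT for the 59 translation factor genes, grouped by role, with points for the edgeR estimate and lines for its 95% interval; blue marks initiation, orange elongation, and dotted lines a 1.25-fold change. Intervals of 50 genes lie between the dotted lines, and 11 of the 12 elongation genes have their point left of 0.

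Eif6, which keeps the large ribosomal subunit from joining too early, was the member with the smallest p. Its levels were 70.5, 73.4 and 68.7 CPM in the KO libraries, against 87.1, 85.8 and 73.4 CPM in the WT libraries. KO replicate 2 and WT replicate 3 had the same level at this rounding, so the groups only just failed to overlap, and the means were 70.9 ± 2.35 CPM in KO and 82.1 ± 7.58 CPM in WT rats (SD, n = 3 each). The log2 fold change was -0.21 (SE 0.08, 95% interval -0.38 to -0.04), with an unadjusted p of 0.0172 and an adjusted p of 0.438 in edgeR. DESeq2 gave an unadjusted p of 0.0255 and an adjusted p of 0.512. WT replicate 3 decided the call: without it the log2 fold change was -0.29 and the adjusted p 0.0475 in edgeR, in a fit that passed 2.15% of all genes, against 0.0254% with all 6 libraries.

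Eif5 encodes the protein that makes eIF2 hydrolyse its GTP once the start codon is found. Its levels were 196, 188 and 303 CPM in the KO libraries, against 297, 262 and 275 CPM in the WT libraries. KO replicates 1 and 2 lay below all WT libraries and KO replicate 3 above them. The log2 fold change was -0.29 (SE 0.20, adjusted p = 0.715 in edgeR), and without KO replicate 3 it was -0.54 (adjusted p = 0.0377), in a fit that passed 0.0335% of all genes. The third gene of this step, Eif5b, had a log2 fold change of 0.08 and its groups overlapped.

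**Figure D2:**
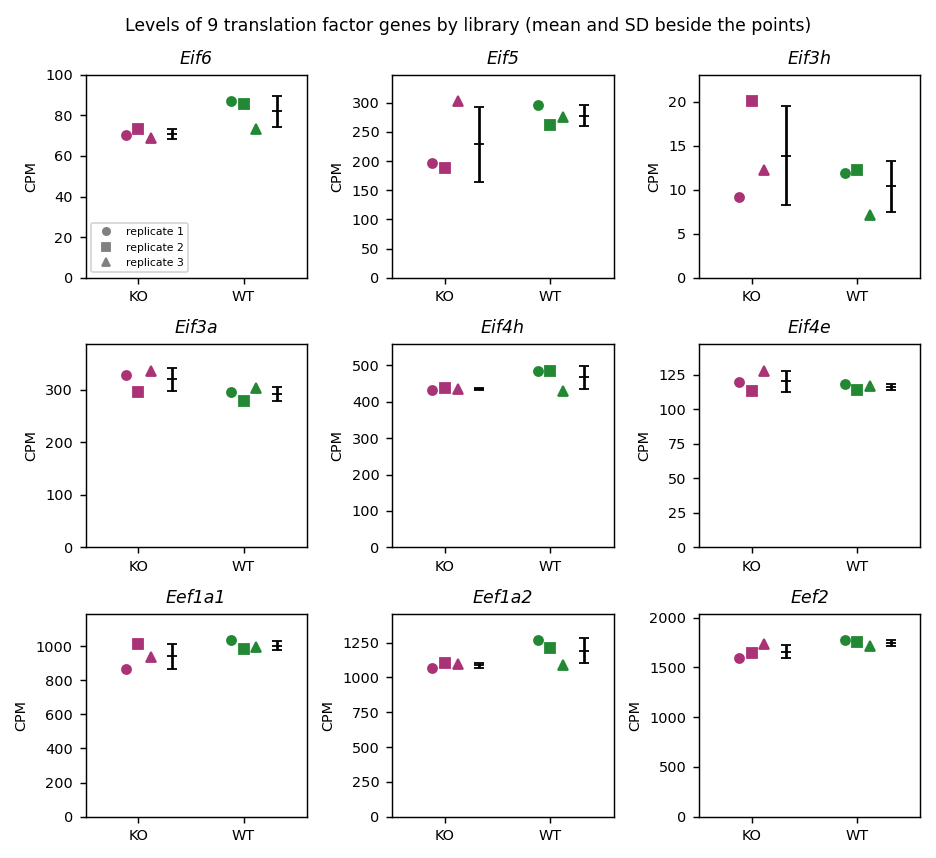
Levels in CPM of 9 translation factor genes in each KO (purple, left) and WT (green, right) library, with a symbol for each replicate number and the mean with its SD beside the points. For Eif5 the KO replicates 1 and 2 sit at 196 and 188 CPM and replicate 3 at 303 CPM, while for Eef2 the KO libraries span 1598 to 1736 CPM and the WT libraries 1718 to 1775 CPM.

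None of the 5 genes grouped under start codon scanning passed an unadjusted p of 0.05 with all 6 libraries. Eif1, which guards the choice of start codon, had 276, 288 and 351 CPM in KO, against 305, 300 and 294 CPM in WT libraries. One KO library was above and the others below all WT libraries, and the log2 fold change was 0.02 (SE 0.08). Its close relative Eif1b had 123, 125 and 144 CPM in KO, against 145, 157 and 133 CPM in WT libraries, which is -0.15 on the log2 scale (SE 0.08, adjusted p = 0.554 in edgeR). Eif1b was among the genes at an unadjusted p under 0.05 when either KO replicate 3 or WT replicate 3 was left out. Eif1a, Eif1ad and Eif1ax had log2 fold changes of 0.05, -0.02 and 0.01.

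The genes for the eIF2 subunits, whose alpha subunit is the target of the stress kinases, had log2 fold changes about as small as their errors, and none passed an unadjusted p of 0.05. Eif2s1, the alpha subunit, had 63.6, 64.3 and 68.8 CPM in KO, against 61.9, 63.2 and 59.4 CPM in WT libraries. This was the member with every KO library above every WT library, and its log2 fold change, 0.09, was little more than its standard error of 0.07 (adjusted p = 0.723 in edgeR). Eif2s2, the beta subunit, had a log2 fold change of 0.09. Eif2s3, the gamma subunit, had 151, 144 and 152 CPM in KO, against 148, 145 and 147 CPM in WT libraries, and a log2 fold change of 0.02 (SE 0.06). Eif2a and Eif2d, whose products can bring initiator tRNA to the ribosome without eIF2, had log2 fold changes of 0.07 and -0.08.

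The 5 genes of eIF2B, the exchange factor that is blocked when eIF2 alpha is phosphorylated, had log2 fold changes between -0.06 and 0.18. Eif2b1, its alpha subunit, had 26.1, 35.3 and 36.2 CPM in KO, against 25.8, 30.5 and 29.8 CPM in WT libraries. In each group replicate 1 was the lowest, KO replicates 2 and 3 were above all WT libraries, and the log2 fold change was 0.18 (SE 0.12, adjusted p = 0.680 in edgeR). It ran from 0.10 without KO replicate 3 to 0.31 without KO replicate 1. Eif2b5, the catalytic epsilon subunit, had 48.8, 49.1 and 48.3 CPM in KO, against 55.7, 48.6 and 47.8 CPM in WT libraries. Apart from WT replicate 1 these values were nearly equal, and the log2 fold change was -0.06 (SE 0.08).

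The 13 genes of eIF3 encode the scaffold that holds the small subunit, the mRNA and the other factors together. Of these, 8 (61.5%) had a log2 fold change below 0, against 49.5% of all genes, and the median was -0.0154. Eif3a, the largest subunit, had 328, 296 and 337 CPM in KO, against 297, 278 and 304 CPM in WT libraries. KO replicate 2 lay within the WT range, and the log2 fold change was 0.13 (SE 0.07, adjusted p = 0.553 in edgeR). Eif3f pointed the other way, with 161, 158 and 168 CPM in KO, against 181, 181 and 162 CPM in WT libraries. WT replicate 3 lay among the KO libraries, and the log2 fold change was -0.10 (SE 0.06). Eif3j, the loosely bound subunit, had a log2 fold change of 0.11 and Eif3k, a peripheral subunit, of -0.13 (SE 0.10 and 0.09).

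Eif3h was the member with the largest spread. It had 9.17, 20.1 and 12.3 CPM in KO, against 11.9, 12.2 and 7.08 CPM in WT libraries, so that KO replicate 2 stood above the rest and the groups overlapped. The SD of its log2 CPM was 0.56 in KO and 0.43 in WT libraries, against a median over the members of 0.08 in KO and 0.09 in WT. The log2 fold change was 0.44 (SE 0.33, adjusted p = 0.732 in edgeR), the highest of the members, and leaving out a single library gave 0.05 (KO replicate 2), 0.23 (WT replicate 3) and 0.66 (KO replicate 1). The counts behind it were 99, 272 and 118 in KO, against 136, 156 and 86 in WT libraries. The other 8 genes of the complex, Eif3b, Eif3c, Eif3d, Eif3el1, Eif3g, Eif3i, Eif3l and Eif3m, had log2 fold changes from -0.05 to 0.08. Eif3el1 names a copy of the Eif3e subunit gene, so reads of the 2 loci may not be kept apart.

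**Figure D3:**
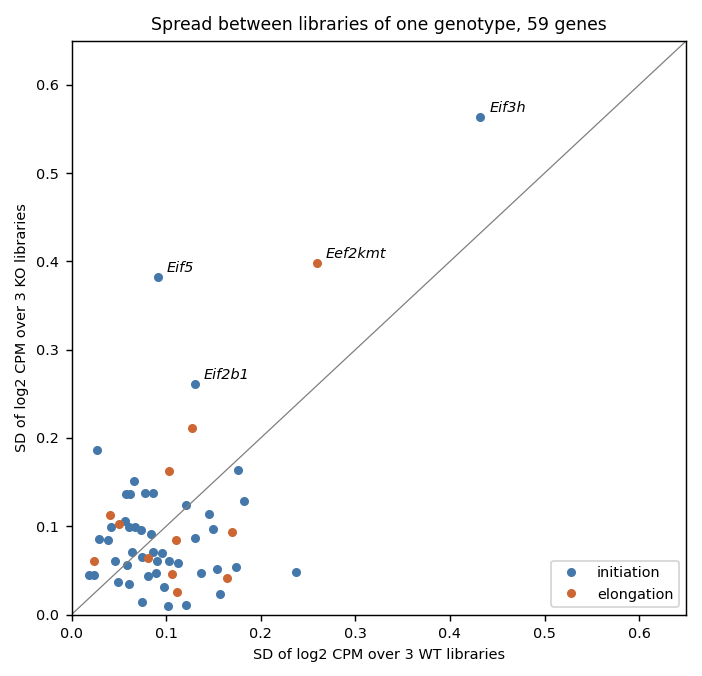
SD of log2 CPM over the 3 WT libraries (x axis) and the 3 KO libraries (y axis) for each of the 59 genes, blue for initiation and orange for elongation, with a line of equal spread. Most genes lie near the medians of 0.08 in KO and 0.09 in WT, and Eif3h (0.56 in KO, 0.43 in WT), Eef2kmt (0.40 in KO, 0.26 in WT), Eif5 (0.38 in KO, 0.09 in WT) and Eif2b1 (0.26 in KO, 0.13 in WT) stand apart.

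The genes of the cap-binding machinery that were in the count table were close to even. Eif4e, which binds the cap, had 120, 113 and 128 CPM in KO, against 118, 114 and 117 CPM in WT libraries, a log2 fold change of 0.05 (SE 0.07). Its relative Eif4e2, which binds caps but does not join eIF4G, had 20.6, 19.9 and 19.5 CPM in KO, against 20.1, 20.1 and 21.3 CPM in WT libraries, a log2 fold change of -0.04 (SE 0.10). In both genes the groups overlapped, and Eif4e3 had a log2 fold change of 0.06. The helicase genes Eif4a1 and Eif4a2, which unwind the leader of the mRNA, had log2 fold changes of 0.07 and -0.02 (SE 0.07 and 0.06). Eif4a2 had 789, 765 and 857 CPM in KO, against 839, 801 and 800 CPM in WT libraries. Eif4a3, a part of the exon junction complex in spite of its name, had a log2 fold change of -0.04.

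The helicase cofactor Eif4h had 432, 437 and 434 CPM in KO, against 486, 486 and 430 CPM in WT libraries. The KO libraries were within a few CPM of each other, WT replicates 1 and 2 were higher, and WT replicate 3 was the lowest of all 6. Its log2 fold change was -0.10 (SE 0.06, adjusted p = 0.622 in edgeR), and that of Eif4b, the other cofactor, was 0.06. The scaffold genes Eif4g2 and Eif4g3 had log2 fold changes of 0.03 and -0.03 (SE 0.06 each). The count table held no symbol Eif4g1, so that scaffold gene has no value here. Eif4g2 had 561, 542 and 593 CPM in KO, against 571, 522 and 571 CPM in WT libraries, with overlapping groups.

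The repressors that compete with eIF4G for eIF4E, which are switched off by mTOR, showed no difference past a threshold. Eif4ebp1 had 12.3, 10.2 and 12.5 CPM in KO, against 14.3, 13.8 and 11.4 CPM in WT libraries, and a log2 fold change of -0.18 (SE 0.14). WT replicate 3 was lower than KO replicates 1 and 3. Eif4ebp2, the main form in brain, had 29.6, 26.6 and 23.9 CPM in KO, against 25.5, 25.4 and 27.5 CPM in WT libraries, and a log2 fold change of 0.03 (SE 0.10). Eif4ebp3 had a log2 fold change of 0.01, and Eif4enif1, which carries eIF4E into the nucleus, of 0.04.

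Of the 12 genes with the elongation prefix, 11 (91.7%) had a log2 fold change below 0, against 49.5% of all genes, and the exception was Eef1aknmt, at 0.07. None of the 12 passed an unadjusted p of 0.05, and their median was -0.08, against 0.02 for the 47 initiation genes and 0.00 for all genes. Without KO replicate 1 the elongation median was -0.0350, and without KO replicate 3 or WT replicate 3 the initiation median was below 0, at -0.0026 and -0.0097. The difference between the 2 medians was not tested, since genes of one library are not replicates. Together the 12 genes took 0.421%, 0.452% and 0.449% of the counts in the KO libraries, against 0.473%, 0.466% and 0.451% in the WT libraries. KO replicate 2 and WT replicate 3 were almost equal. The 47 initiation genes took 0.638%, 0.630% and 0.675% in the KO libraries, against 0.661%, 0.641% and 0.636% in the WT libraries, which overlapped.

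Eef2, the translocase, had 1598, 1647 and 1736 CPM in KO, against 1775, 1755 and 1718 CPM in WT libraries. KO replicate 3 lay above WT replicate 3, and the log2 fold change was -0.08 (SE 0.06, 95% interval -0.20 to 0.05, adjusted p = 0.715 in edgeR). Its kinase Eef2k, which halts elongation by phosphorylating eEF2, had 34.5, 36.4 and 34.9 CPM in KO, against 31.4, 35.7 and 39.5 CPM in WT libraries. The KO values lay inside the WT range, with a log2 fold change of -0.01 (SE 0.10).

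Eef1a1 and Eef1a2 encode the tRNA carrier, the second being the form that takes over in adult neurons and muscle. Eef1a2 had 1067, 1103 and 1094 CPM in KO, against 1268, 1214 and 1092 CPM in WT libraries. As with Eif4h and Eif6, the KO libraries were close together, WT replicates 1 and 2 were higher and WT replicate 3 was at or near the KO level. The log2 fold change was -0.13 (SE 0.06, adjusted p = 0.548 in edgeR). Eef1a1 had 868, 1014 and 936 CPM in KO, against 1035, 981 and 994 CPM in WT libraries, a log2 fold change of -0.09 (SE 0.06), with KO replicate 2 inside the WT range. Eef1a1 has many processed copies in mammalian genomes, and how reads that map to several places were counted is not given in the sources used here, so its level is uncertain.

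The exchange complex that reloads eEF1A was close to even. Eef1b2, Eef1d and Eef1g had log2 fold changes of -0.03, -0.08 and -0.01 (SE 0.08, 0.07 and 0.06). Eef1b2 had 122, 140 and 152 CPM in KO, against 150, 142 and 130 CPM in WT libraries, so that the groups covered nearly the same range. Eef1g had 334, 341 and 363 CPM in KO, against 364, 355 and 327 CPM in WT libraries. Eef1e1, whose product sits in the complex of tRNA synthetases, had a log2 fold change of -0.07.

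The enzymes that methylate the elongation factors did not differ past a threshold, and the intervals of 3 of the 4 reached a 1.25-fold change. Eef2kmt, which methylates eEF2, had 2.96, 1.70 and 1.88 CPM in KO, against 2.96, 3.36 and 2.31 CPM in WT libraries. KO replicate 1 was level with WT replicate 1, and the counts were only 18 to 43 per library. The log2 fold change was -0.41 (SE 0.29, 95% interval -1.02 to 0.21), the lowest of the members, and it ran from -0.69 without KO replicate 1 to -0.24 without KO replicate 2. Eef1akmt1 and Eef1akmt2, both methyltransferases of eEF1A, had log2 fold changes of -0.15 and -0.10. Eef1aknmt, which the annotation lists as Mettl13, had 33.3, 29.7 and 32.5 CPM in KO, against 27.6, 31.4 and 31.6 CPM in WT libraries.

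The genes of eIF5A, which helps ribosomes through difficult stretches such as proline runs and carries the modified amino acid hypusine, were also even. Eif5a had a log2 fold change of -0.04 and Eif5a2 of 0.10 (SE 0.06 and 0.08). Pairs of related genes were compared within each library, as the log2 ratio of their counts. This ratio does not depend on the scaling of the library. Eif4e2 does not join eIF4G, so it and Eif4e are relatives that do not do the same work. The exact permutation test over libraries cannot go below p = 0.1 with 3 against 3, and p-values were adjusted over the 4 ratios. The ratio of Eef1a2 to Eef1a1 counts was 1.23, 1.09 and 1.17 in KO and 1.22, 1.24 and 1.10 in WT libraries, a difference of -0.03 on the log2 scale (exact p = 0.600, adjusted 0.600). The ratio of Eif4a2 to Eif4a1 differed by -0.09 (exact p = 0.200, adjusted 0.533), that of Eif5a2 to Eif5a by 0.14 (exact p = 0.300, adjusted 0.533) and that of Eif4e2 to Eif4e by -0.09 (exact p = 0.400, adjusted 0.533). For none of the 4 pairs was a shift of the balance detected, and the design could not have reached 0.05.

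The group medians differed between libraries of 1 genotype by as much as between genotypes. Against the mean of the WT libraries, the median log2 deviation of the 12 elongation genes was -0.14, -0.03 and -0.02 in the KO libraries, and 0.04, 0.03 and -0.06 in the WT libraries. For the 47 initiation genes it was -0.01, -0.01 and 0.07 in the KO libraries, and 0.04, 0.01 and -0.05 in the WT libraries. WT replicate 3 was the lowest WT library in both groups of genes. The cytoplasmic ribosomal protein genes varied in the same way and more widely, with -0.17, -0.09 and -0.01 in KO and 0.08, 0.06 and -0.15 in WT libraries. Their median log2 fold change was -0.09, with 68 of 78 below 0, against 49.5% of all genes, and the unadjusted threshold of 0.05 was passed by 13 of them downwards and by 1 upwards, beside 5.15% and 4.19% of all genes. The mitochondrial ribosomal protein genes had a median of -0.05, with 50 of 68 (73.5%) below 0. The elongation genes thus stood nearer to the ribosomal protein genes than to the initiation genes by their medians, a description without a test.

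**Figure D4:**
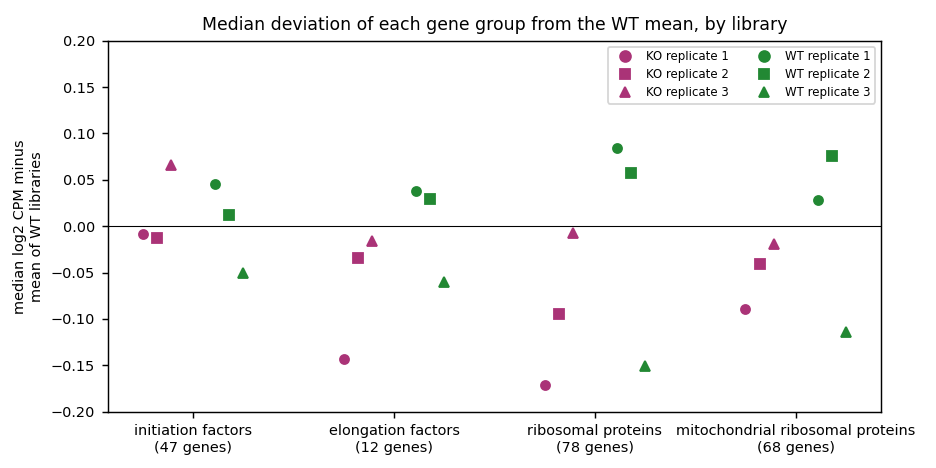
Median deviation of log2 CPM from the mean of the WT libraries, for 4 groups of genes (x axis), with KO libraries in purple on the left of each group, WT libraries in green on the right, and a symbol for each replicate number. WT replicate 3 (triangle) is the lowest WT point in each of the 4 groups, at -0.06 for the elongation genes and -0.15 for the ribosomal protein genes.

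The counts of members past the unadjusted threshold depended on single libraries. Without WT replicate 3, 5 members were lower in KO (Eef1a2, Eif1b, Eif3f, Eif4h and Eif6) and 2 higher (Eif3a and Eif3j), while the same fit called 8.93% of all genes lower and 8.69% higher. Without KO replicate 3, 3 members were lower (Eif1b, Eif3k and Eif5) and 0 higher, beside 3.91% and 3.14% of all genes. Without WT replicate 1 no member passed in either direction, beside 4.07% of all genes lower and 2.85% higher, and likewise without WT replicate 2, beside 3.17% and 2.73%. Without KO replicate 1, Eif6 was lower and Eif2b1 and Eif3h were higher, beside 3.16% of all genes lower and 2.73% higher. Without KO replicate 2, Eef1a1 and Eif6 were lower and Eif3a was higher, beside 4.89% and 3.87% of all genes.

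Genes that act beside the translation factors were taken from 5 lists. Of 9 tested genes for the eIF2 kinases, their regulators and the eIF2 alpha phosphatase, 1 (11.1%) had a log2 fold change below 0, against 49.5% of all genes, and the median was 0.09. Over all 5 lists the shares of all genes to set beside the counts at an unadjusted p under 0.05 are 5.15% lower and 4.19% higher. Among the 9 genes, 0 were lower and 1 was higher. Impact, which restrains the kinase Gcn2, had 530, 516 and 555 CPM in KO, against 437, 475 and 496 CPM in WT libraries. It was the 1 of the 9 genes with every KO library above every WT library, beside 7.19% of all genes. It passed the unadjusted threshold with a difference of 0.19 on the log2 scale (SE 0.06, adjusted p = 0.387 in edgeR). The kinases themselves, Eif2ak1, Eif2ak2, Eif2ak3 and Eif2ak4, had log2 fold changes of 0.05, 0.10, 0.05 and 0.09.

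Of 13 tested genes for poly(A)-binding proteins and regulators of cap-dependent initiation, 1 was lower and 0 were higher. This was Pdcd4, an inhibitor of the eIF4A helicase, with 74.3, 73.4 and 69.9 CPM in KO, against 86.2, 79.7 and 76.8 CPM in WT libraries, which is -0.16 on the log2 scale (SE 0.07, adjusted p = 0.528 in edgeR). Of 15 tested genes for termination, recycling and ribosome rescue, Pelo, which splits stalled ribosomes, was lower (log2 fold change -0.31, SE 0.12) and Nemf, which marks the products of stalled ribosomes for degradation, was higher (0.19, SE 0.08). Of the 15 genes, 1 (Pelo) had every KO library below WT, beside 7.52% of all genes. Every KO library was above WT in 2 (Nemf and Abcf1), beside 7.19% of all genes. Pelo and Nemf were named for their p, so their lack of overlap is no separate support. The adjusted p was 0.438 for Pelo and 0.497 for Nemf in edgeR. Of 7 tested enzymes that put diphthamide on eEF2 or hypusine on eIF5A, none passed in either direction.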

How the data were processed

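Total hippocampal RNA was made into libraries with an NEBNext Ultra II kit and sequenced by the authors as single-end reads. According to the methods and the submitters' processing notes, reads were checked with FastQC, aligned to rn6 with HISAT2 and counted per gene with htseq-count in the "intersection non-empty" mode. Versions, annotation, strand setting and the handling of reads that map to several places are not given in the sources used here. The deposited table held counts, whole numbers without normalization, for 17455 symbols, and all 6 columns were assigned by name. A second table held the authors' own DESeq2 comparison and was not used.

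Counts were analysed with edgeR 4.0.16 in R 4.3.3. Genes were kept by filterByExpr (minimum count 10), scaled by TMM and tested two-sided with a robust quasi-likelihood fit with genotype alone in the model. Benjamini-Hochberg adjustment covered the 11800 genes. CPM use TMM factors, and deviations and SDs use log2 CPM with a prior count of 2. SDs are over the 3 libraries of a group, and the labels name no cultures or pools. SEs and 95% intervals come from the quasi-likelihood fit, in which the variance of a gene also draws on the other genes tested. Alternatives were DESeq2 1.42.0, RLE size factors, no filter, a replicate block and leaving out each library.

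The members and lists were chosen with earlier results of these data known. Members named with values were those at an unadjusted p under 0.05, the most abundant of each role group, the genes of the 4 ratios and those called in any alternative, 20 in all. A further 14 (Eif3h, Eef2kmt, Eif2b1, Eif3f, Eif1b, Eif2s1, Eef1b2, Eef1d, Eif4ebp1, Eif4ebp2, Eif3k, Eif3j, Eef2k and Eif4g3) were chosen after their values were seen, and the rest appear with a log2 fold change only. Of the 59 symbols 58 matched RefSeq (GRCr8) by symbol and 1 by synonym. Levels are not compared between genes, since no transcript lengths were used.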

Additional observations from a re-analysis of the deposited data

How the results depend on the processing

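The number of members lower in KO at an unadjusted p under 0.05 was 1 under DESeq2, RLE size factors, no filter on low counts and a replicate block. It ran from 0 to 5 when single libraries were left out, the number of higher members from 0 to 2, and the number called at an adjusted p under 0.05 from 0 to 1. Leaving out WT replicate 3 called Eif6 and leaving out KO replicate 3 called Eif5. The medians ran from -0.01 to 0.03 for initiation and from -0.11 to -0.04 for elongation genes. Across 34 named members and 10 alternatives, 17 of 340 values changed sign, each without one library. The log2 fold change then ran from -0.0882 to 0.0903 for Eif1, -0.0961 to 0.0169 for Eif2b5, -0.0661 to 0.0156 for Eif4a2, -0.0093 to 0.0855 for Eif4enif1, -0.0133 to 0.0557 for Eif4g2, -0.0551 to 0.0219 for Eef1g, -0.1056 to 0.0494 for Eef1b2, -0.0438 to 0.1035 for Eif4ebp2, -0.0915 to 0.0697 for Eef2k and -0.0863 to 0.0031 for Eif4g3. The Eef1a2 to Eef1a1 log2 ratio ran from -0.0859 to 0.0160, and Eif5 from -0.54 to -0.16. The cause was not tested. The deviations of same-numbered KO and WT libraries had correlations of 0.03, -0.01 and -0.08 across genes. Those of differently numbered libraries ran from -0.08 to 0.08. These values cannot decide whether the numbers pair the rats, since the labels do not say how the rats were numbered. The replicate block gave 1 lower, 0 higher and 0 called members. Eef2kmt had no DESeq2 adjusted p. With 3 libraries a group, the intervals of 9 members reached a 1.25-fold change, Eef2kmt with 18 to 43 counts per library among them.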

Other observations

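The factors that carry out the same steps in mitochondria are named without the Eif and Eef prefixes. Of 10 tested genes 2 had a log2 fold change below 0, against 49.5% of all genes, with a median of 0.06, and 3 were higher in KO at an unadjusted p under 0.05, where 4.19% of all genes were. Guf1, the mitochondrial relative of the bacterial back-translocase LepA, had 36.3, 37.0 and 40.1 CPM in KO, against 31.0, 29.4 and 29.9 CPM in WT libraries, which is 0.33 on the log2 scale (SE 0.09, edgeR adjusted p = 0.274). Mtif3, a mitochondrial initiation factor, had 10.7, 11.1 and 11.9 CPM in KO, against 8.89, 7.26 and 9.06 CPM in WT libraries, which is 0.42 on the log2 scale (SE 0.15, edgeR adjusted p = 0.387). Gfm2, which recycles mitochondrial ribosomes, was higher by 0.23 on the log2 scale (SE 0.09, edgeR adjusted p = 0.474). Of the 10 genes, these 3 had every KO library above every WT library, beside 7.19% of all genes. They were named for their p, so the lack of overlap is no separate support. Tufm, the mitochondrial counterpart of eEF1A, had 68.5, 71.1 and 74.9 CPM in KO, against 73.9, 74.8 and 73.6 CPM in WT libraries, and a log2 fold change of -0.05. None of these differences passed adjustment over all genes.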
